A study of Penicillium citrinum with 6 samples.

Results

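Transcripts of *Penicillium citrinum* mycelium grown on tobacco leaves for 3 days were compared with those of mycelium grown on plates for 2 days. The series holds 6 RNA sequencing libraries of the wild type in 3 groups, and 4 of them enter this comparison. CK2D came from Czapek-Dox plates, whose carbon and nitrogen sources are sucrose and nitrate, and was harvested 2 days after conidia were spread. TL3D is mycelium from tobacco leaves, called "flured" in the labels, harvested 3 days after the leaves were inoculated with conidia. TL2D is the leaf group of day 2, shown here only to place the values. All groups were wild type and were kept at 25 °C, and each has 2 libraries. The titles use these codes without spelling them out, and since only leaves were sampled at day 3, TL was read as leaf and CK as plate. The labels name no promoter, transgene or mutation, and they leave the code CY-H4 unexplained. No deposited table pairs TL3D with CK2D. The 2 tables were joined by gene number, which gave 9385 genes in all, and every gene belongs to the comparison. Substrate and age differ together between the groups and cannot be told apart.

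*Penicillium citrinum* is a filamentous mould best known for the mycotoxin citrinin, a polyketide that was named after it. Moulds that grow on leaves secrete enzymes that open the plant cell wall: lyases and hydrolases for pectin, glucanases and oxidative monooxygenases for cellulose, and xylanases, arabinofuranosidases and esterases for the hemicelluloses. The sugars, amino acids and metal ions set free are taken up by families of membrane transporters. When a colony reaches air and matures, the regulators brlA, abaA and wetA (known from *Aspergillus*) drive the formation of conidia, the dry asexual spores.

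Levels are given in FPKM, the authors' deposited measure of fragments per gene, corrected for the gene's length and for the library's total. Of the 9385 genes, 8356 reached 1 FPKM in at least 2 of the 4 libraries and were tested, and 1029 were not. Changes are log2 differences of TL3D minus CK2D on log2(FPKM + 1), with their standard error, from limma with n = 2 libraries per group. This scale understates the change of genes at low levels. A gene is called at a limma p-value, adjusted over all 8356 genes, under 0.05. On that rule 2352 genes (28.1%) were higher in TL3D and 2521 (30.2%) were lower, so 58.3% of all tested genes were called. Most changes were small: the median absolute change of the called genes was 0.64. Only 736 genes (8.81%) were at least 2-fold higher and 592 (7.08%) at least 2-fold lower, and at 16-fold the counts were 52 and 32. The groups did not overlap in 6772 genes (81%). The median change of all tested genes was −0.04. With each library scaled by the median log ratio, 2519 genes were higher and 2282 lower. The counts of each gene list below are read against these shares.

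The libraries summed to between 582600 and 614206 FPKM, and their read totals are unknown. Replicates lay close together in CK2D (Pearson r over genes 0.994, with 18 genes 2-fold apart) and in TL3D (0.995, with 10). The TL2D replicates were less alike (0.976, with 358 genes 2-fold apart), so each TL2D value below is given per library. Whether replicates were grown separately is not stated in the labels, and a p-value here reflects the spread among these libraries alone, which may be technical. In bulk RNA, fewer cells of a kind and less RNA per cell cannot be told apart.

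**Figure D1:**
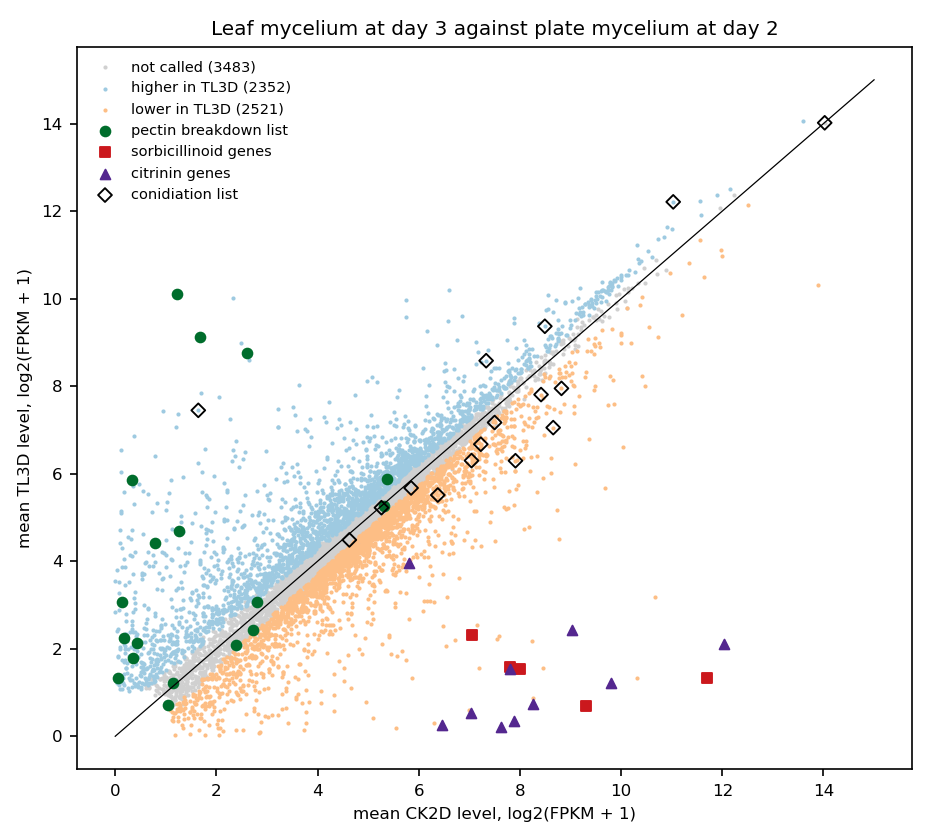
Mean level of each of the 8356 tested genes in CK2D (x axis) and TL3D (y axis), both as log2(FPKM + 1), with the mean over 2 libraries. Blue and orange points are genes called higher and lower in TL3D; 12 of the 18 pectin genes (green circles) were called higher and the leading ones lie far above the diagonal, sorbicillinoid and citrinin genes (red squares, purple triangles) far below it, and conidiation genes (open diamonds) on both sides.

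Pectin breakdown was the plant polymer list that moved most in one direction. Of 22 genes found by name, 18 were tested, 12 were called higher, 0 lower, and the median change was 1.58, beside −0.04 over all tested genes; without CK2D replicate 2, 1 member was called lower. Some members, such as PCI_0131 below, passed the filter on low values through TL3D alone. Without that filter, 12 of 22 were higher, 0 lower and the median change was 0.87, beside −0.02 over all genes then tested. The summed level of the list was 110.3 and 109 FPKM in the CK2D libraries and 2322 and 2317 FPKM in the TL3D libraries. The leading gene was pectin lyase A PCI_6944, which cleaves methylated pectin by elimination. It read 0.845 and 1.81 FPKM on plates and 1078 and 1121 FPKM on leaves at day 3. It went from barely detected to one of the well expressed genes with no overlap, a change of 8.92 ± 0.18 (limma adjusted p = 6.50e-08), the largest rise among named genes above the median level. Endopolygalacturonase A PCI_6081, which hydrolyses the demethylated chain from within, read 1.88 and 2.50 FPKM on plates and 576 and 530.4 FPKM on leaves (7.45 ± 0.12). A further polygalacturonase, PCI_2378, rose from 4.44 and 5.73 to 433 and 434 FPKM (6.17 ± 0.12). In all 3 genes both leaf libraries were far above both plate libraries, and replicates were close.

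Smaller pectin enzymes followed at lower levels. A copy of pectin lyase A, PCI_0131, rose from 0.324 and 0.208 to 54.8 and 59.5 FPKM (5.52 ± 0.12). Rhamnogalacturonase A PCI_3991, which cuts the branched pectin backbone, and endopolygalacturonase D PCI_8848 rose by 3.64 ± 0.14 and 3.42 ± 0.12. Pectate lyase A PCI_4885, pectate lyase D PCI_0625, pectin lyase F PCI_5120, rhamnogalacturonate lyase A PCI_7371 and pectinesterase A PCI_7054 were called higher too, with TL3D levels of 1.02 to 8.34 FPKM. Polygalacturonase 1 PCI_6785 behaved differently, with 39.2 and 41.5 FPKM on plates already and 64.9 and 50.7 FPKM on leaves (0.50 ± 0.13, limma adjusted p = 0.0120). Of the 6 tested members that were not called, exopolygalacturonase C PCI_2491 read 4.54 and 3.93 FPKM on plates and 3.80 and 2.71 on leaves, and rhamnogalacturonate lyase C PCI_7457 read 40.1 and 37.2 FPKM on plates and 34.8 and 39.6 FPKM on leaves. Members beyond the naming rule, here and in the lists that follow, were picked after their values were seen.

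Cellulose genes split. Of 22 tested members of 33, 8 were higher and 7 lower, and the median change was 0.05. Those shares are near the background, and without CK2D replicate 2 or TL3D replicate 1 the lower count was 4. The largest rise of the list was in a gene named for a cellulose binding domain, a name that gives no enzyme activity. The cellulose binding domain protein PCI_7585 read 3.72 and 4.37 FPKM on plates and 1038 and 1033 FPKM on leaves (7.68 ± 0.10). Endo-beta-1,4-glucanase B PCI_3154, which cuts cellulose inside the chain, read 4.29 and 4.87 FPKM on plates and then 505 and 503 FPKM on leaves (6.50 ± 0.09). In both genes the leaf libraries lay far above the plate libraries. Polysaccharide monooxygenase Cel61a PCI_3894, which opens crystalline cellulose by oxidation, rose from 91.8 and 100.9 to 1144 and 1215 FPKM (3.60 ± 0.09). Cellobiose dehydrogenase PCI_9370, known to pass electrons to such monooxygenases, rose from 0.260 and 0.142 to 9.81 and 11.1 FPKM (3.25 ± 0.15). The falls included beta-glucosidases, which release glucose from the fragments. Beta-glucosidase L PCI_0427 dropped from 93.98 and 90.8 to 3.07 and 3.29 FPKM (−4.48 ± 0.10), and beta-glucosidase A PCI_8351 from 140.0 and 125 to 62.8 and 83.3 FPKM (−0.86 ± 0.14).

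Hemicellulose genes split in the same manner, with 14 of 43 tested members higher and 18 lower (median −0.17, 61 members in all). Endo-1,4-beta-xylanase A PCI_7049, which cuts the xylan backbone, read 0.0118 and 0.142 FPKM on plates and 96.1 and 87.1 FPKM on leaves (6.43 ± 0.12). The gene with the next number, alpha-L-arabinofuranosidase axhA-1 PCI_7050, which strips arabinose side chains from xylan, read 0.250 and 1.22 FPKM on plates and 86.2 and 82.4 FPKM on leaves (5.68 ± 0.24). Both were near the floor on plates in both libraries, so the size of the ratio rests on values around or below 1 FPKM. Xyloglucan-specific endo-beta-1,4-glucanase A PCI_0448 was better measured on plates, at 3.31 and 2.93 FPKM, and reached 215 and 214 FPKM (5.71 ± 0.10). Feruloyl esterase A PCI_7559, which frees ferulic acid from the wall, was listed at 0 in both CK2D libraries and read 6.07 and 6.33 FPKM in TL3D. On the falling side, alpha-L-arabinofuranosidase axhA PCI_8847 went from 11.4 and 10.02 to 1.37 and 1.78 FPKM (−2.19 ± 0.14). The abundant arabinan endo-1,5-alpha-L-arabinosidase C PCI_7540 went from 651 and 596 to 283 and 306 FPKM (−1.08 ± 0.09). Genes with the names axhA and axhA-1 thus changed in opposite directions.

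Cutinases, which cleave the waxy polyester over the leaf epidermis, were low on plates and higher on leaves without overlap. Cutinase 1 PCI_0177 read 0.274 and 0.312 FPKM on plates and 40.05 and 37.4 FPKM on leaves (4.94 ± 0.12). Cutinase 2 PCI_2127 rose to 15.6 and 12.1 FPKM and cutinase 3 PCI_9224 to 12.4 and 9.77 FPKM, from levels under 1 FPKM. The wider list of cutin and lipid hydrolases had 19 higher and 17 lower of 50 tested, and 11 lower without TL3D replicate 1. Phospholipase D/Transphosphatidylase PCI_2213 showed its largest fall, from 13.7 and 12.3 to 3.06 and 2.71 FPKM (−1.85 ± 0.12). Among 11 tested starch and sucrose enzymes, 4 rose and 5 fell, and 2 rose without TL3D replicate 1. Invertase 4 PCI_7398, which splits sucrose, rose from 0.808 and 0.627 to 14.1 and 15.4 FPKM (3.19 ± 0.13). Glucoamylase PCI_3644, which frees glucose from starch, fell from 18.6 and 16.1 to 2.55 and 2.94 FPKM (−2.29 ± 0.13).

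**Figure D2:**
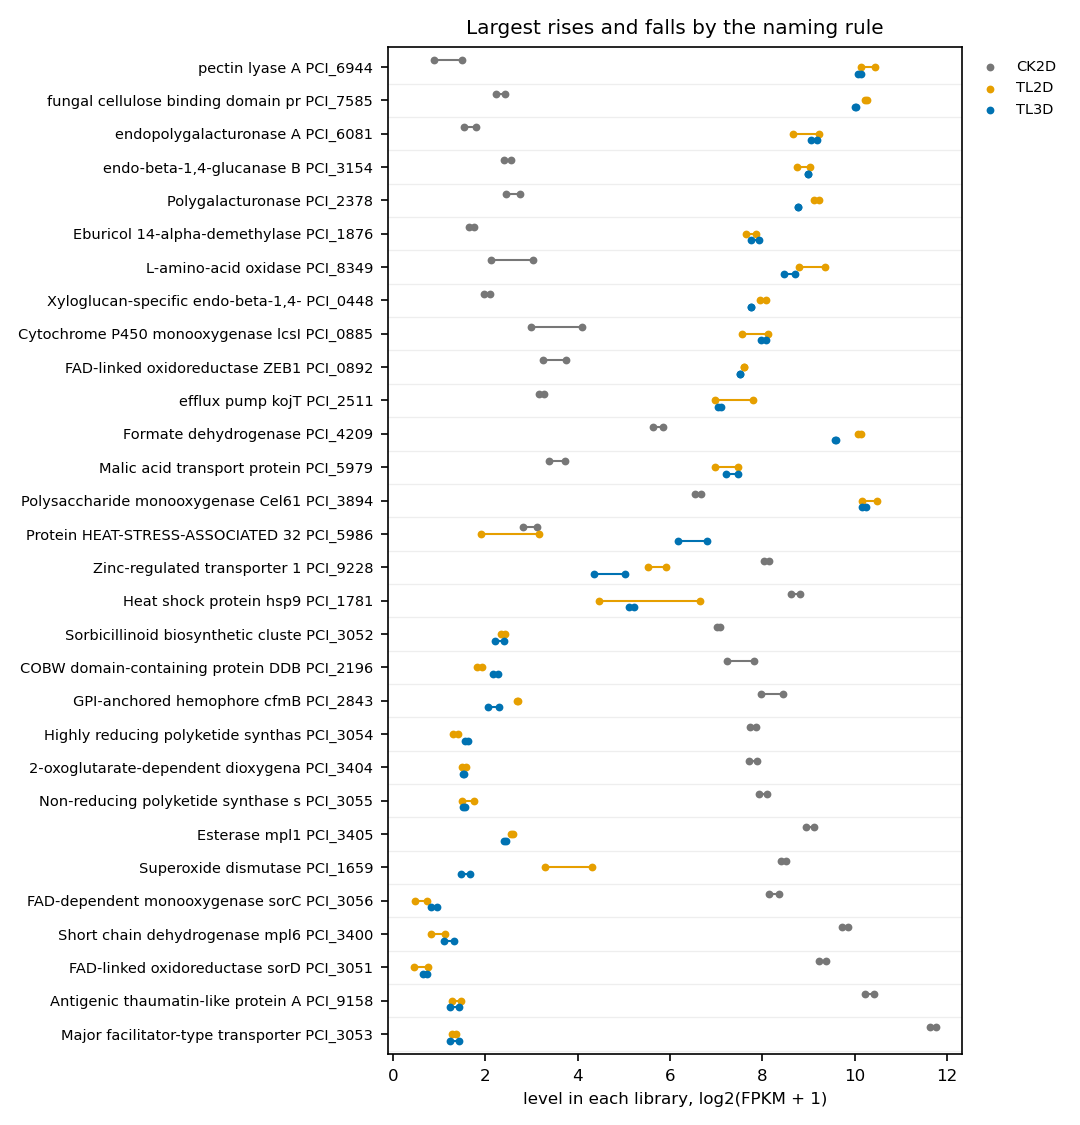
Level in each library, as log2(FPKM + 1), for the 15 largest rises and 15 largest falls by the naming rule, ordered by change; grey is CK2D, orange TL2D and blue TL3D, and a line joins the 2 libraries of a group. In all 30 genes the CK2D and TL3D points lie apart, and the TL2D points lie nearer to TL3D than to CK2D in every gene but the heat-stress protein PCI_5986.

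Sugar transporters were lower more often than higher. Of 43 tested members, 10 rose, 21 fell and the median change was −0.44. Some members, such as mfs1 PCI_7993 below, passed the filter on low values through CK2D alone. Without that filter, 10 of 61 rose, 23 fell and the median change was −0.18, beside −0.02 over all genes then tested. High-affinity glucose transporter PCI_2887 showed the pattern at a high level: it read 229.9 and 210.1 FPKM on plates and 45.2 and 49.3 FPKM on leaves (−2.19 ± 0.09). Glucose transporter HXT5 PCI_4074 fell from 126 and 143 to 34.2 and 34.5 FPKM (−1.94 ± 0.10), and MFS glucose transporter mfs1 PCI_7993 fell from 6.64 and 9.89 to 0.398 and 0.398 FPKM (−2.71 ± 0.19). The neighbouring maltose permease PCI_7994 fell with it (−2.33 ± 0.14). Against these, high-affinity glucose transporter ght2 PCI_4311 rose from 3.38 and 4.07 to 16.4 and 14.95 FPKM (1.82 ± 0.13) and HXT2 PCI_2306 rose from 11.2 and 8.36 to 24.9 and 28.3 FPKM (1.37 ± 0.15). Quinate genes, which serve growth on the plant acid quinate, were at the background, with 7 higher and 8 lower of 27 tested, and 4 lower without TL3D replicate 2. The 3-dehydroshikimate dehydratase PCI_8991, which feeds the ring into protocatechuate, rose from 2.48 and 3.38 to 39.7 and 27.99 FPKM (3.14 ± 0.19). In TL2D it read 1.97 and 0.346 FPKM, below both plate libraries. Quinate permease PCI_0784 fell from 11.4 and 14.2 to 4.26 and 3.62 FPKM (−1.47 ± 0.14). The malic acid transport protein PCI_5979 was among the 15 rises of the naming rule, from 12.1 and 9.43 to 147 and 176 FPKM (3.79 ± 0.14).

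Nitrogen genes were mostly higher. In the list of nitrate, ammonium, urea and purine use, 15 of 25 tested members rose, 2 fell and the median change was 0.66. Without the filter on low values, 16 of 31 rose, 3 fell and the median change was 0.405. Ammonium transporter 1 PCI_6654 rose most, from 3.39 and 3.55 FPKM on plates to 28.7 and 31.8 FPKM on leaves (2.81 ± 0.11, limma adjusted p = 1.51e-06). A second gene of that name, PCI_1602, stood at 137 and 141 FPKM on plates and 348 and 379 FPKM on leaves (1.38 ± 0.08). The nitrate genes with consecutive numbers rose together: nitrate transporter PCI_3791 by 1.16 ± 0.10, nitrite reductase PCI_3792 by 1.16 ± 0.08 and nitrate reductase PCI_3793 by 0.99 ± 0.09. Nitrate reductase read 20.9 and 21.7 FPKM on plates and 42.9 and 43.9 FPKM on leaves. The second nitrate reductase, PCI_1262, read 18.8 and 19.6 FPKM on plates and 22.6 and 18.4 FPKM on leaves, and its groups overlapped. Uricase PCI_6737, which opens the purine ring of urate, rose by 1.04 ± 0.14, and urea active transporter 1 PCI_1860 by 1.39 ± 0.14. Urease accessory protein UreD PCI_3026 fell from 39.1 and 40.5 to 22.4 and 23.8 FPKM (−0.76 ± 0.09), whereas the accessory genes named UreF-like PCI_7036 and ureG-like PCI_1994 rose by 0.90 ± 0.09 and 0.62 ± 0.08.

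Amino acid and peptide transporters leaned the same way, with 24 higher and 10 lower of 57 tested (median 0.25). The N amino acid transport system protein PCI_8661 rose from 10.4 and 10.8 to 61.2 and 59.9 FPKM (2.41 ± 0.09). Peptide transporter ptr2 PCI_3637 rose from 40.6 and 60.9 to 128 and 138 FPKM (1.40 ± 0.17). Arginine permease CAN1 PCI_1198 fell, from 114 and 87.4 to 23.1 and 17.7 FPKM (−2.25 ± 0.16), while a second gene of that name, PCI_1243, rose by 1.45 ± 0.12. The L-amino-acid oxidase PCI_8349, which frees ammonia from amino acids, ranked seventh among rises by the naming rule, which takes named genes above the median level, at 3.37 and 7.16 FPKM on plates and then 352 and 417 FPKM on leaves (6.01 ± 0.26). Peptidases went against the transporters: 47 of 102 tested were lower and 20 higher. Secreted acid proteases were among the falls, with aspergillopepsin-2 PCI_6085 going from 3699.8 and 4507 to 2135 and 1900.2 FPKM (−1.02 ± 0.12) and penicillopepsin-1 PCI_3611 from 3015 and 3368 to 1668 and 1200.1 FPKM (−1.17 ± 0.15). Serine carboxypeptidase PCI_8274 fell most, from 173 and 235 to 41.9 and 31.6 FPKM (−2.44 ± 0.17), and the aspartic endopeptidase opsB PCI_1337 rose most, from 3.95 and 5.42 to 26.3 and 27.2 FPKM (2.30 ± 0.14). Amino acid synthesis had 25 higher and 10 lower of 63, and 16 higher without TL3D replicate 2. Its abundant glutamine synthetase PCI_1696, which fixes ammonia, rose from 551 and 607 to 1238 and 1193 FPKM (1.07 ± 0.09). The largest rise of that list was in PCI_1156, named glutamine synthetase catalytic region, from 0.912 and 0.565 to 4.07 and 4.46 FPKM (1.60 ± 0.165). Its largest fall was in branched-chain-amino-acid aminotransferase PCI_8282, from 8.30 and 9.72 to 1.97 and 1.35 FPKM (−1.92 ± 0.16).

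Iron genes rose more often than they fell. Of 36 tested members, 20 were higher and 7 lower (median 0.43). The rises were led by transporters for siderophores, small secreted iron chelators. MFS siderochrome iron transporter 1 PCI_7080 read 0.0680 and 0.128 FPKM on plates and 18.1 and 19.4 FPKM on leaves (4.17 ± 0.13). Siderophore iron transporter mirB PCI_1223 went from 0.925 and 1.07 to 42.3 and 27.9 FPKM (4.15 ± 0.19), and siderochrome transporter PCI_4951 from 1.60 and 1.34 to 29.1 and 28.8 FPKM (3.60 ± 0.12). None of these groups overlapped. In the other direction, the GPI-anchored hemophore cfmB PCI_2843, a surface protein of a family that binds haem, fell from 249 and 349.5 to 3.88 and 3.15 FPKM (−6.04 ± 0.17, limma adjusted p = 2.66e-07). The ferric reductase PCI_9121 and the iron transport multicopper oxidase FET3 PCI_0125, which belong to the reductive uptake route, changed by −2.03 ± 0.13 and −0.81 ± 0.12. Ferric reductase PCI_1633 rose by 0.56 ± 0.12, so reductases lay on both sides.

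Secondary metabolism held the deepest falls. The genes of the sorbicillinoids, yellow polyketide pigments, have the consecutive numbers PCI_3051 to PCI_3055, and 5 of 5 fell, with a median of −6.47. The transporter sorT PCI_3053 read 3157 and 3456 FPKM on plates and 1.34 and 1.69 FPKM on leaves. That is the largest fall of the comparison by the naming rule, at −10.36 ± 0.10 (limma adjusted p = 7.68e-09). The oxidoreductase sorD PCI_3051 fell from 596 and 666 to 0.659 and 0.578 FPKM (−8.61 ± 0.10). The polyketide synthases that build the chain, sorA PCI_3054 and sorB PCI_3055, fell from 211 and 233 to 1.96 and 2.06 FPKM and from 241 and 272 to 1.86 and 1.96 FPKM. The cluster's transcription factor PCI_3052 kept the highest leaf level of the set, 3.62 and 4.25 FPKM against 128 and 135 FPKM on plates (−4.75 ± 0.10). The next gene number, PCI_3056, is the monooxygenase sorC, and it dropped from 281 and 329 to 0.934 and 0.758 FPKM (−7.37 ± 0.12). With it, PCI_3051 to PCI_3056 form a run of 6 consecutive numbers that all fell at least 4-fold, a size of change called in 1.91% of tested genes downward and 3.02% upward. A further gene named for this cluster, the transcription factor PCI_3057, fell less, from 51.8 and 60.2 to 14.8 and 15.97 FPKM (−1.79 ± 0.11).

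The citrinin genes PCI_3398 to PCI_3407 fell in 10 of 10 cases, with a median of −7.02. The citrinin polyketide synthase PCI_3406, which builds the toxin's skeleton, read 197 and 198 FPKM on plates and 0.188 and 0.110 FPKM on leaves (−7.43 ± 0.10). The esterase mpl1 PCI_3405 went from 556 and 488 to 4.28 and 4.47 FPKM, the dioxygenase mpl2 PCI_3404 from 236 and 207 to 1.89 and 1.87 FPKM, and the dehydrogenase mpl6 PCI_3400 from 922 and 847 to 1.49 and 1.16 FPKM. These names come from the citrinin genes of *Monascus*. The unnamed PCI_3401, inside the run, was the most abundant of the set on plates at 4695 and 3737 FPKM and read 3.37 and 3.24 FPKM on leaves (−9.93 ± 0.12). The aldehyde dehydrogenase mpl4 PCI_3402 changed by −7.55 ± 0.16, the dehydrogenase mpl7 PCI_3399 by −6.52 ± 0.10, the oxidoreductase PCI_3398 by −7.55 ± 0.10 and the transporter mrr1 PCI_3407 by −6.19 ± 0.14. The activator mrl3 PCI_3403 fell least, from 52.9 and 56.99 to 14.3 and 14.9 FPKM (−1.84 ± 0.09), and it was the one citrinin gene still above 10 FPKM on leaves. On leaves at day 2 the summed levels were already as low: 10.5 and 9.25 FPKM for the sorbicillinoid genes and 36.7 and 28.8 FPKM for the citrinin genes in TL2D, beside 9.44 and 10.5 FPKM and 27.2 and 27.1 FPKM in TL3D.

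A further run, PCI_7325 to PCI_7329, also fell at least 4-fold in 5 of 5 genes, but its plate levels were uneven. The transporter ucsD PCI_7328 read 4.30 and 20.8 FPKM in CK2D replicates 1 and 2, and 0.186 and 0.273 FPKM in TL3D. Its mean level was 54.7-fold lower on leaves, 90.7-fold without CK2D replicate 1 and 18.7-fold without CK2D replicate 2. The Diels-Alderase mycB PCI_7326 and the trans-enoyl reductase mycC PCI_7325, enzyme types of polyketide pathways, changed by −3.12 ± 0.41 and −2.38 ± 0.45, with plate values of 7.80 and 23.6 and of 3.004 and 11.3 FPKM. Leaf levels were under 1 FPKM in all 5 genes and the plate replicates lay far apart, so the run is less well measured than the others.

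Polyketide and peptide synthases of secondary metabolism were lower more often than higher: 15 of 24 tested members fell and 3 rose (median −0.75). Some members, such as the citrinin synthase PCI_3406, passed the filter on low values through CK2D alone. Without that filter, 17 of 35 fell, 5 rose and the median change was −0.28, beside −0.02 over all genes then tested. The falls include sorA, sorB and the citrinin synthase of the runs above, and the conidial albA described below. The highly reducing synthase azaB PCI_6521 fell from 48.5 and 45.1 to 12.4 and 15.5 FPKM (−1.69 ± 0.12), and nonribosomal peptide synthetase 1 PCI_4947 from 49.8 and 50.1 to 11.6 and 15.6 FPKM (−1.82 ± 0.14). The largest rise was at a low level, in PCI_3666, a gene with the name of a phthiocerol polyketide synthase, from 1.64 and 1.42 to 7.49 and 5.64 FPKM (1.57 ± 0.16). Cytochrome P450 genes, whose enzymes often decorate such products, had 18 higher and 20 lower of 52 tested, not far from the background. The P450 lcsI PCI_0885 rose from 6.93 and 15.9 to 269 and 251 FPKM (4.49 ± 0.30). Its CK2D libraries differ by more than 2-fold, and the rise is many times that gap. The P450 yanH PCI_1024 fell from 88.9 and 119 to 3.57 and 3.67 FPKM (−4.49 ± 0.14), together with its number neighbours PCI_1025 (−3.13 ± 0.12) and PCI_1026 (−2.33 ± 0.11). The FAD-linked oxidoreductase ZEB1 PCI_0892, named after a zearalenone gene of *Fusarium*, rose from 8.44 and 12.3 to 182 and 182 FPKM (4.03 ± 0.16).

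**Figure D3:**
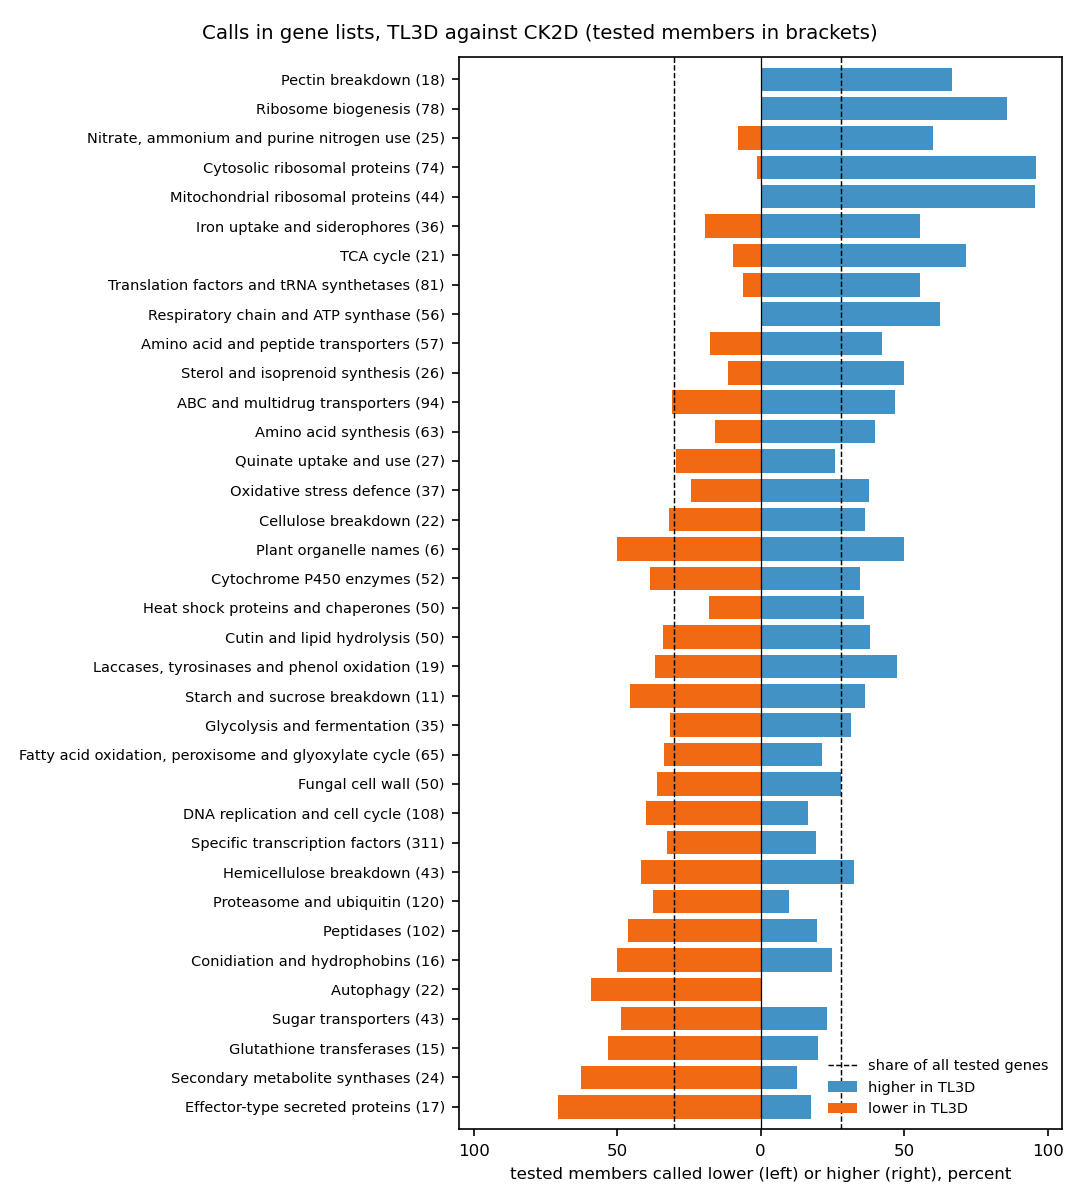
Share of tested members of each of 36 gene lists called higher (blue, right) or lower (orange, left) in TL3D than in CK2D, in percent, ordered by median change, with the number tested in brackets; dashed lines mark 28.1% and 30.2%, the shares over all tested genes. Pectin, ribosome and nitrogen lists lean right, and secondary metabolite, effector-type and autophagy lists lean left.

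Conidiation genes were expressed in both groups, although the labels call the samples mycelia. The list of 17 genes, which takes in hydrophobins, had 16 tested, of which 4 rose and 8 fell (3 fell with all 6 libraries in one fit). The 4 rises were all hydrophobins, given below. The list summed to 22049 and 20683 FPKM in CK2D and 21995 and 25393 FPKM in TL3D. Most of that was hydrophobin PCI_0227, at 17134 and 16188 FPKM in CK2D and 15365 and 17804 FPKM in TL3D. Regulators came out lower on leaves or not called. The master regulator brlA PCI_2178, which starts conidiophore formation, read 489.9 and 412 FPKM on plates and 211 and 281 FPKM on leaves (−0.88 ± 0.15, limma adjusted p = 0.00187). The next regulator in the cascade, abaA PCI_1856, went from 88.1 and 76.04 to 38.4 and 50.9 FPKM (−0.87 ± 0.14). Both fell without overlap, by less than 2-fold. The late regulator wetA PCI_1706 changed by −0.33 ± 0.10, from 185 and 175 to 131 and 155 FPKM. The spore regulator vosA PCI_8689 read 58.1 and 55.1 FPKM on plates and 50.1 and 49.96 FPKM on leaves, a difference that was not called (−0.17 ± 0.09, limma adjusted p = 0.118).

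Pigment genes of the spore wall were lower on leaves. The polyketide synthase albA PCI_7912, which makes the precursor of the conidial pigment in *Aspergillus*, read 411 and 395 FPKM on plates and 130.2 and 133 FPKM on leaves (−1.60 ± 0.08). Its number neighbour, laccase abr2 PCI_7911, read 249 and 231 FPKM on plates and 72.8 and 82.4 FPKM on leaves (−1.62 ± 0.10). Multicopper oxidase abr1 PCI_7946 (−0.62 ± 0.17) and a second laccase abr2, PCI_8986 (−0.74 ± 0.08), also fell. Another gene of that name, PCI_2282, was under 1 FPKM in every plate and day 3 library and was not tested. Hydrophobins, small proteins that make aerial surfaces water-repellent, did not go with the pigment genes. PCI_9301 rose from 2.26 and 1.98 to 164 and 183 FPKM (5.81 ± 0.11), and PCI_2310 from 2146 and 2034 to 4426 and 5054 FPKM (1.18 ± 0.10). PCI_8314 and PCI_2115 rose by 1.25 ± 0.08 and 0.88 ± 0.14. The most abundant hydrophobin, PCI_0227, overlapped between groups at 17134 and 16188 FPKM on plates and 15365 and 17804 FPKM on leaves (−0.01 ± 0.11, limma adjusted p = 0.943). The part of spore-forming cells in the other gene groups was not tested. A list of 6 genes with chloroplast names, kept as a check for leaf RNA, summed to 137 and 161 FPKM in CK2D and 84.7 and 71.4 FPKM in TL3D. Every member had values above 0 in both plate libraries, where no leaf was present. The list therefore cannot show whether leaf RNA was in the TL3D libraries.

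**Figure D4:**
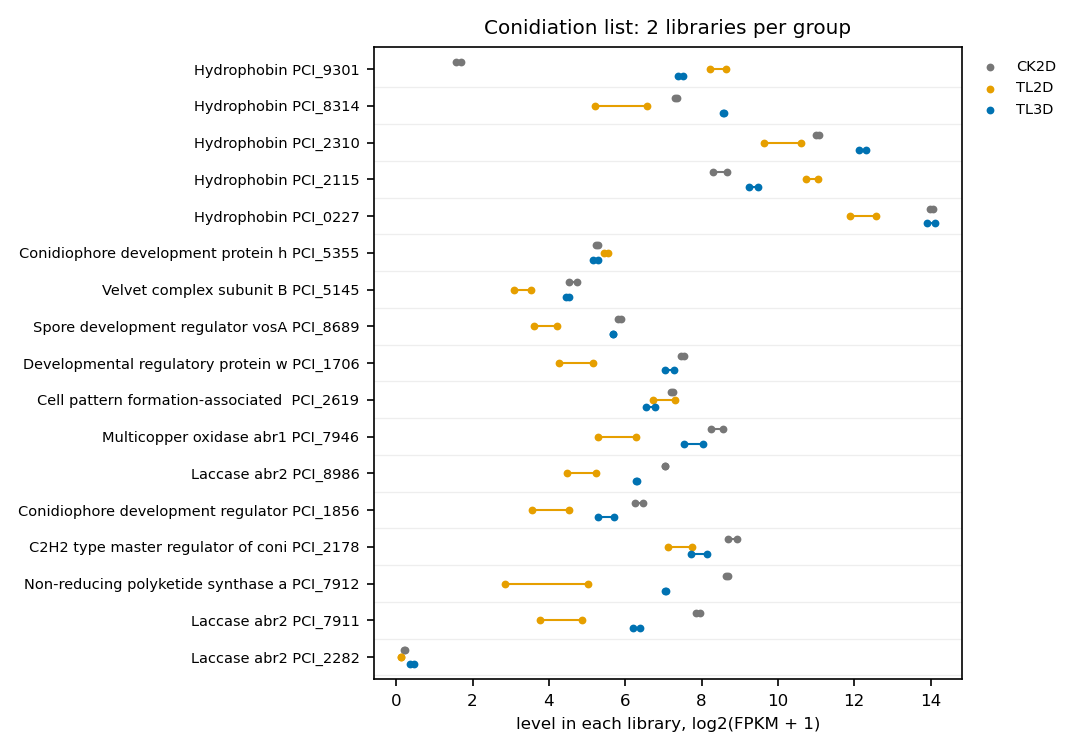
Level in each library, as log2(FPKM + 1), of the 17 genes of the conidiation list, ordered by change, with the untested laccase PCI_2282 last; grey is CK2D, orange TL2D and blue TL3D. In wetA PCI_1706, abaA PCI_1856 and albA PCI_7912 the TL2D points are lowest and the TL3D points lie between TL2D and CK2D.

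The day 2 leaf libraries show where these values sit. From TL2D to TL3D, 557 of 8222 tested genes (6.77%) rose and 271 (3.3%) fell, and this test shares the TL3D libraries with the comparison above. In the conidiation list 9 of 16 rose and 2 fell over that day (median 1.61). The wetA gene PCI_1706 read 34.4 and 18.1 FPKM in TL2D, below both other groups, and rose by 2.46 ± 0.31 to day 3. The vosA gene PCI_8689 read 17.5 and 11.2 FPKM and rose by 1.77 ± 0.22. For albA PCI_7912 the TL2D libraries read 31.3 and 6.22 FPKM, far apart between replicates, and the difference of 3.12 was not called (limma adjusted p = 0.0597). In pectin genes the leaf days were close: 2 of 17 rose from day 2 to day 3 and 0 fell, with pectin lyase A PCI_6944 at 1388 and 1123 FPKM in TL2D.

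Genes of protein synthesis rose in most cases, by small steps. Of 74 cytosolic ribosomal proteins, 71 were higher and 1 lower, with a median of 0.51 and no gene changed 2-fold. The 40S protein S21 PCI_5823 led, from 845 and 718 FPKM on plates to 1385 and 1284 FPKM on leaves (0.77 ± 0.10). The exception was a gene named 60S ribosomal protein L30, PCI_4575, at 139 and 151 FPKM on plates and then 87.1 and 88.2 FPKM on leaves (−0.72 ± 0.09). Mitochondrial ribosomal proteins gave 42 higher and 0 lower of 44 (median 0.47). Their leader, 54S protein L9 PCI_4163, rose from 54.1 and 47.5 to 84.6 and 92.9 FPKM (0.80 ± 0.10). Ribosome biogenesis factors, which process and assemble ribosomal RNA in the nucleolus, rose further, with 67 of 78 higher, 0 lower and a median of 0.78. Nucleolar protein 16 PCI_5227 rose from 18.7 and 22.1 to 59.4 and 50.7 FPKM (1.39 ± 0.12). In this list 20 of 78 genes were lower at day 3 than at day 2 on leaves and 0 were higher. Nucleolar protein 16 read 76.8 and 87.00 FPKM in TL2D. Translation factors and tRNA ligases gave 45 higher and 5 lower of 81, but 25 higher without TL3D replicate 2 and 28 without CK2D replicate 2, and 2 or 3 lower without any 1 library. Initiation factor 6 PCI_4377 rose by 0.75 ± 0.08, and aspartate tRNA ligase PCI_5158 changed by −0.71 ± 0.10.

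Mitochondrial energy genes followed. In the TCA cycle 15 of 21 tested members rose and 2 fell (median 0.42). A citrate synthase-like protein, PCI_9437, rose from 118 and 119 to 301 and 294 FPKM (1.32 ± 0.08), whereas malate dehydrogenase PCI_0075 fell from 15.8 and 17.2 to 7.64 and 6.96 FPKM (−1.07 ± 0.11). Respiratory chain and ATP synthase genes gave 35 higher and 0 lower of 56, with a median of only 0.27. That count rests on small differences and was 14 without TL3D replicate 2 and 23 without CK2D replicate 2 or TL3D replicate 1. Alternative oxidases, which bypass the later complexes of the chain, moved most. PCI_9062 rose from 5.79 and 7.61 to 17.2 and 22.9 FPKM (1.45 ± 0.17), and the less expressed PCI_4315 rose by 1.63 ± 0.17.

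Glycolysis and fermentation genes were at the background, with 11 higher and 11 lower of 35. Pyruvate decarboxylase, the entry to ethanol formation, held the largest rise and the largest fall of the list. PCI_0101 read 0.0585 and 0.229 FPKM on plates and 12.6 and 14.7 FPKM on leaves (3.68 ± 0.15), and PCI_7442 read 32.1 and 34.6 FPKM on plates and 0.382 and 0.279 FPKM on leaves (−4.69 ± 0.12). PCI_7442 was the higher of the pair on plates and PCI_0101 on leaves at day 3. In TL2D both were low, with PCI_0101 at 1.22 and 0.398 FPKM and PCI_7442 at 0.321 and 0.348 FPKM. Alcohol dehydrogenase 2 PCI_9163 rose from 2.37 and 2.67 to 39.3 and 34.6 FPKM (3.43 ± 0.12), and it was as low in TL2D as on plates, at 3.31 and 2.50 FPKM. Fatty acid oxidation and glyoxylate genes gave 14 higher and 22 lower of 65, near the background, and the lower count was 13 without CK2D replicate 2 or TL3D replicate 2 and 14 without TL3D replicate 1. The largest fall of the list was in the mitochondrial acyl-CoA dehydrogenase PCI_1240, from 120 and 115 to 67.1 and 65.5 FPKM (−0.82 ± 0.08). Peroxisomal 3-ketoacyl-CoA thiolases, which act in the last step of beta-oxidation, included PCI_1000 and PCI_6401, which rose by 2.48 ± 0.10 and 1.99 ± 0.10. Peroxisomal sarcosine oxidase PCI_8816, an oxidase of N-methylated amino acids found through its peroxisome name, rose from 3.94 and 3.95 to 75.99 and 77.8 FPKM (3.98 ± 0.09). Formate dehydrogenase PCI_4209, which oxidises formate to CO2, ranked twelfth among rises by the naming rule, from 48.7 and 56.2 to 756 and 769 FPKM (3.84 ± 0.09).

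Housekeeping lists on the lower side changed little per gene. Autophagy had 13 lower and 0 higher of 22 (median −0.29), and 8 lower without TL3D replicate 1. Atg22 PCI_5616, a vacuolar exporter of amino acids in yeast, fell from 15.5 and 21.5 to 6.19 and 6.16 FPKM (−1.42 ± 0.16), and the central autophagy protein Atg8 PCI_2078 was not called, at 348 and 369.7 FPKM on plates and 309 and 319 FPKM on leaves. Proteasome and ubiquitin genes had 45 lower and 12 higher of 120 (28 lower without TL3D replicate 1), none by 2-fold. The activator BLM10 PCI_4670 changed by −0.93 ± 0.11, and the ubiquitin ligase-interacting protein creD PCI_9139 rose by 0.91 ± 0.11. DNA replication and cell cycle genes had 43 lower and 18 higher of 108, but 18 lower without TL3D replicate 1 and 9 or 10 higher without TL3D replicate 2 or replicate 1. PHO85 cyclin-1 PCI_0447 changed by −0.89 ± 0.14, and the small chain of ribonucleoside-diphosphate reductase PCI_3244, which makes DNA precursors, rose by 0.76 ± 0.10.

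Sterol genes were called higher more often than lower. In the list of sterol and isoprenoid synthesis 13 of 26 rose and 3 fell (median 0.24). Eburicol 14-alpha-demethylase PCI_1876, the enzyme class that azole fungicides inhibit, read 2.11 and 2.35 FPKM on plates and 243 and 216 FPKM on leaves (6.16 ± 0.10). The second gene of this step, sterol 14-alpha demethylase PCI_6001, was well expressed on plates and rose less, from 73.3 and 66.6 to 100.3 and 115 FPKM (0.61 ± 0.10). Methylsterol monooxygenases showed the same contrast: PCI_6659 rose from 3.77 and 4.54 to 86.3 and 81.1 FPKM (4.04 ± 0.11), and PCI_6107 from 102 and 104 to 318 and 354 FPKM (1.69 ± 0.09). The pairs differ in how low the plate level was, and their leaf levels differ by less. Among squalene synthases, PCI_4064 rose by 0.25 ± 0.08 and PCI_9347 fell from 21.4 and 27.99 to 5.01 and 4.62 FPKM (−2.13 ± 0.14).

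Efflux pumps were called higher more often than lower, with 44 higher and 29 lower of 94 tested multidrug and ABC transporters (median 0.21). ABC multidrug transporter C PCI_2853 read 0.233 and 0.332 FPKM on plates and 46.7 and 56.2 FPKM on leaves (5.35 ± 0.13). The pump kojT PCI_2511, named after the kojic acid transporter of *Aspergillus*, rose from 7.89 and 8.65 to 136 and 131 FPKM (3.86 ± 0.09). ABC multidrug transporter atrA PCI_5126 fell from 11.5 and 19.9 to 1.09 and 1.04 FPKM (−2.97 ± 0.23). Glutathione transferases, which tag toxic compounds with glutathione, went the other way: 8 of 15 fell and 3 rose (median −0.74). The falls included abundant genes, FUS3-like PCI_2118 from 1482 and 1376 to 245 and 267 FPKM (−2.48 ± 0.09), tpcF PCI_7597 from 953 and 913 to 205 and 177 FPKM (−2.28 ± 0.10) and gedE PCI_8607 from 359 and 419 to 65.7 and 62.4 FPKM (−2.58 ± 0.10). OpS6 PCI_6542 rose most, from 16.4 and 18.05 to 96.2 and 62.99 FPKM (2.12 ± 0.18). Its TL2D libraries read 15.3 and 7.68 FPKM, below both plate libraries.

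Genes for aromatic compounds moved both ways, with 9 higher and 7 lower of 19 tested. Catechol O-methyltransferase 1 PCI_2499 rose from 0.334 and 0.209 to 63.8 and 56.2 FPKM (5.58 ± 0.12), and catechol 1,2-dioxygenase PCI_6073, which opens the catechol ring, rose from 3.47 and 3.43 to 53.1 and 55.1 FPKM (3.63 ± 0.10). The falls included the conidial laccase abr2 PCI_7911 described above. Oxidative stress genes numbered 37 tested, with 14 higher and 9 lower. Catalase A PCI_9497, which breaks down hydrogen peroxide, rose from 3.06 and 4.04 to 41.7 and 32.4 FPKM (3.06 ± 0.16). In TL2D it read 1.24 and 0.348 FPKM, below both plate libraries. A further catalase, PCI_2755, rose from 5.14 and 4.73 to 42.9 and 45.8 FPKM (2.93 ± 0.10). Superoxide dismutase PCI_1659 dropped from 338 and 362 to 2.18 and 1.76 FPKM (−6.89 ± 0.11), while the most abundant gene of that name on leaves, PCI_0015, read 288 and 306 FPKM on plates and 362 and 341 FPKM on leaves (0.24 ± 0.08). Heat shock and chaperone genes showed 18 higher and 9 lower of 50. Hsp9 PCI_1781 fell from 394 and 452 to 36.1 and 33.5 FPKM (−3.56 ± 0.10), Hsp90 PCI_5901 from 1094 and 959 to 562 and 622 FPKM (−0.79 ± 0.10), and the co-chaperone cns1 PCI_0345 rose by 0.998 ± 0.11.

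Effector-type secreted proteins and allergens were mainly lower: 12 of 17 tested fell, 3 rose and the median was −1.02, with 22 members in all. The thaumatin-like protein PCI_9158 fell from 1196 and 1361 FPKM on plates to 1.67 and 1.33 FPKM on leaves (−8.997 ± 0.11), the second largest fall by the naming rule. Allergen Asp f 15 PCI_1160 went from 300.0 and 347 to 44.4 and 49.6 FPKM (−2.76 ± 0.10), and Asp f 7 PCI_0622 from 869.6 and 953 to 259 and 301 FPKM (−1.70 ± 0.10). The rises were of genes at low levels. LysM domain protein PCI_2595, of a family that binds chitin, read 0.0762 and 0.200 FPKM on plates and 4.23 and 3.83 FPKM on leaves (2.15 ± 0.16), and NLP effector protein 10 PCI_7517 read 3.32 and 2.60 FPKM on plates and 5.39 and 4.68 FPKM on leaves (0.61 ± 0.15).

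Fungal cell wall genes stood at 14 higher and 18 lower of 50, near the background, and at 11 lower without TL3D replicate 1. Endochitinase B1 PCI_0369 rose from 1.41 and 3.54 to 28.6 and 22.5 FPKM (2.99 ± 0.28). Glucan 1,3-beta-glucosidase PCI_0387 fell from 28.2 and 28.9 to 2.85 and 2.54 FPKM (limma adjusted p = 1.08e-06). Of 311 specific transcription factors, 101 fell (32.5%), near the 30.2% of all tested genes, and 60 rose (19.3%), beside 28.1%. The C2H2 factor PCI_9458 rose from 1.41 and 2.11 to 17.3 and 17.4 FPKM (2.74 ± 0.15), and the sorbicillinoid factor PCI_3052 fell most. The ABC-transporter-regulating factor PCI_2854, whose number follows the transporter PCI_2853, rose from 4.46 and 6.93 to 20.7 and 22.2 FPKM (1.77 ± 0.18).

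Genes that differed from both other groups were sorted by the signs of the tests against CK2D and TL2D, and 5 per pattern are named. The day 3 test shares its libraries with the plate comparison, so the signs are not independent. Highest of the 3 groups was the cupin oxidoreductase virC PCI_6240, at 9.52 and 17.2 FPKM in CK2D, 6.33 and 0.116 in TL2D and 180.1 and 121 in TL3D. Its number neighbour PCI_6241, an S-(hydroxymethyl)glutathione dehydrogenase that removes formaldehyde, read 8.95 and 13.3 FPKM in CK2D, 6.44 and 0.142 FPKM in TL2D and 151 and 98.4 FPKM in TL3D. Against plates they rose by 3.42 ± 0.27 and 3.37 ± 0.23. Heat-stress-associated 32 PCI_5986, the NACHT domain protein PCI_4622 and hexose transporter HXT10 PCI_5998 were likewise highest in TL3D, with values of 110.4 and 71.4, of 74.7 and 57.2 and of 79.98 and 50.3 FPKM. TL2D replicate 2 was the lowest library in all 5 genes, well under TL2D replicate 1, and its part in the order was not tested.

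Above plates but below day 2 leaves were the peroxidase stcC PCI_2009, at 8.45 and 8.94 FPKM in CK2D, 228 and 196 FPKM in TL2D and 71.00 and 69.4 FPKM in TL3D, and hydrophobin PCI_2115, at 404 and 314 FPKM in CK2D, 1702 and 2137 FPKM in TL2D and 607 and 713 FPKM in TL3D. The secreted protein PCI_7165, the P450 pkfB PCI_5820 and 2,3-dihydroxybenzoate decarboxylase PCI_4328 had this order too. For the last 2 of these the difference from plates was small (0.37 ± 0.12 and 0.34 ± 0.09), and their calls were lost without CK2D replicate 1 or TL3D replicate 1, and that of PCI_5820 also without TL3D replicate 2. Below plates but above day 2 leaves lay the consecutive genes PCI_8004 to PCI_8007. Cyclopiazonic acid synthetase PCI_8004 read 93.1 and 91.8 FPKM in CK2D, 12.03 and 2.61 FPKM in TL2D and 58.1 and 58.9 FPKM in TL3D, and the peptide synthetase anaPS PCI_8005 read 112 and 118 FPKM in CK2D, 13.5 and 3.30 FPKM in TL2D and 73.98 and 73.5 FPKM in TL3D. With all 6 libraries in one limma fit, which takes in the wider TL2D spread, the calls of PCI_8004 to PCI_8007, PCI_1264, PCI_4622 and PCI_5998 against plates were lost. The methyltransferase xanE PCI_8006 changed by −0.94 ± 0.09 against plates, the indoleamine dioxygenase PCI_8007 by −0.76 ± 0.13, and catechol O-methyltransferase 2 PCI_1264 by −0.49 ± 0.10. Lowest of the groups were superoxide dismutase PCI_1659, at 8.78 and 18.7 FPKM in TL2D, and the indoleamine dioxygenase family protein PCI_3950, at 44.1 and 45.8 FPKM in CK2D, 71.00 and 58.7 FPKM in TL2D and 10.8 and 13.04 FPKM in TL3D. The serine-rich protein PCI_2348, the P450 adrA PCI_7156 and ABC transporter B PCI_4946 were lowest there too, changing by −1.52 ± 0.18, −1.87 ± 0.10 and −1.21 ± 0.15 against plates.

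**Figure D5:**
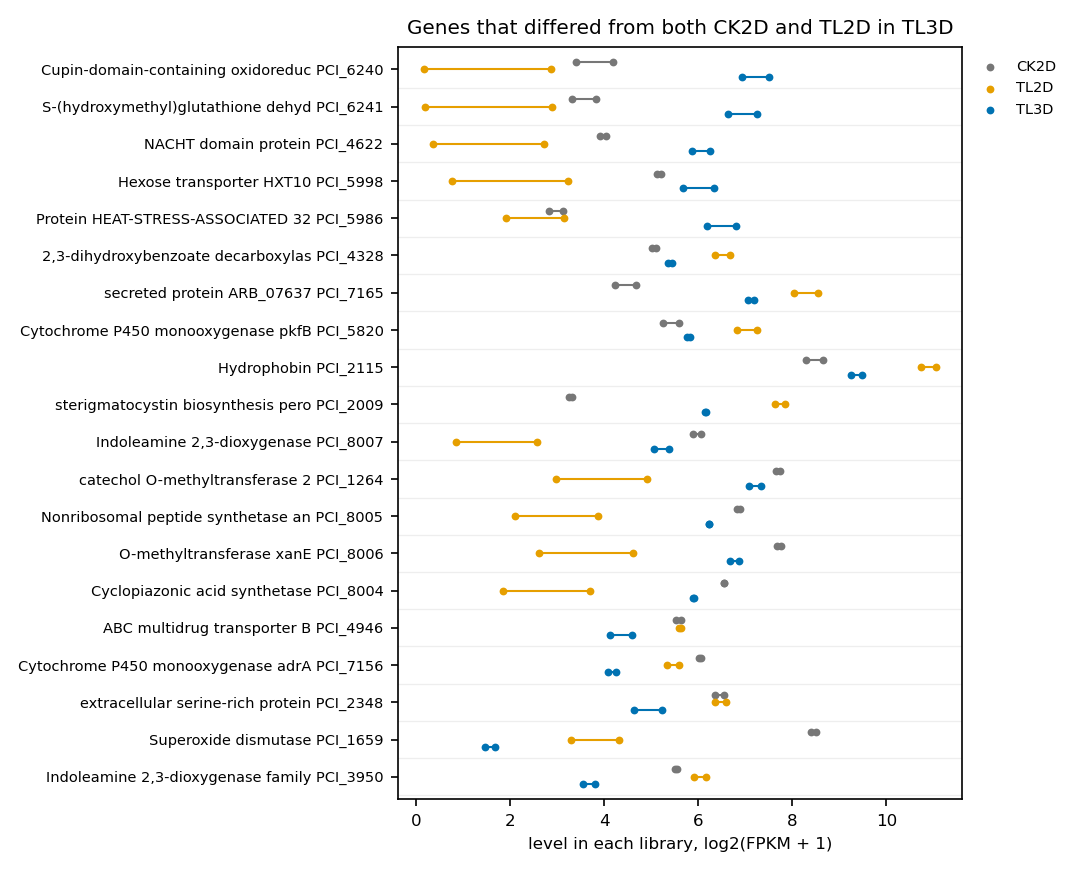
Level in each library, as log2(FPKM + 1), of the 20 genes named for differing from both CK2D (grey) and TL2D (orange) in TL3D (blue), 5 per pattern from the top: above both, between with plates lowest, between with day 2 leaves lowest, and below both. The TL2D points are far apart in most genes where TL2D is the lowest group, such as PCI_6240.

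Among the most abundant transcripts, in TL3D the unnamed PCI_8701 was first at 16386 and 17609.8 FPKM (12756 and 12068 FPKM on plates, 0.45 ± 0.09), and its call was lost on leaving out either TL3D library. Its number neighbour PCI_8702 moved the other way, from 5587 and 6128 to 4756 and 4239.9 FPKM (−0.38 ± 0.10), a call also lost on leaving out either TL3D library. Histone genes, which package DNA, were in the upper 10 on leaves: H4.1 PCI_8246 rose from 4827 and 4268 to 5553 and 6123 FPKM (0.36 ± 0.10), H2A PCI_6249 by 0.49 ± 0.11 and H2B PCI_6250 by 0.33 ± 0.09, and each of these 3 calls was lost without TL3D replicate 2. The H4.1 call was also lost without CK2D replicate 2 or TL3D replicate 1, and the H2B call without TL3D replicate 1. H3 PCI_8247 read 3941 and 4006 FPKM on plates and 4100.4 and 4559.8 FPKM on leaves (0.12 ± 0.09, limma adjusted p = 0.283). Elongation factor 1-alpha PCI_8195 stood at 4873 and 4781 FPKM on plates and 5214 and 5376 FPKM on leaves (0.13 ± 0.08), and ATP synthase subunit 9 PCI_2924 at 3189.7 and 2824 FPKM on plates and 4616 and 4966 FPKM on leaves (0.67 ± 0.10). Larger changes among the abundant genes were found in hydrophobin PCI_2310, aspergillopepsin-2 PCI_6085 and the citrinin-run gene PCI_3401, given above, and in 2 unnamed genes. The unnamed PCI_8277, second on plates at 13263 and 16961 FPKM, fell to 1592 and 942 FPKM (−3.61 ± 0.23), and the unnamed PCI_2457 fell from 4249 and 3754 to 1762 and 2656 FPKM (−0.88 ± 0.18).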

How the data were processed

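Total RNA was extracted with TRIzol from mycelium, 2 libraries per group, and sequenced as cDNA, per the labels. The values are FPKM made by the authors, per the file headers. Cufflinks is the one tool given, per the submitters' processing notes, and which aligner, build and annotation were used is not given in the sources used here. With the read totals unknown, depth is unknown and no counting interval can be given. The TL2D columns were identical in both deposited tables for 9385 of 9385 genes, so TL3D and CK2D were set side by side across them.

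A gene was tested if 2 or more of the 4 libraries had 1 FPKM or more. Tests were run with limma 3.58.1 (R 4.3.3) on log2(FPKM + 1), with empirical Bayes moderation, a trend and 2 residual degrees of freedom. Calls are Benjamini-Hochberg adjusted p-values, over all tested genes, under 0.05. TL3D against TL2D and TL2D against CK2D were fitted in the same way, and the latter shares CK2D with the comparison described. Tables and figures were made with pandas 2.3.3, numpy 2.4.6 and matplotlib 3.10.9, and the fit was checked on simulated data.

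The 36 gene lists are search terms on product names, and the citrinin and sorbicillinoid runs are consecutive gene numbers. Members and lists were chosen with earlier results of these data known, and search terms were narrowed by product names alone. The naming rule took, per direction, the 15 largest changes among called, informatively named genes above the median level with groups that did not overlap. It added each list's top rise and fall, the members of the runs, the 10 most abundant genes per group, 5 genes per pattern over the 3 groups and runs of at least 5 numbers changed at least 4-fold. It named 129 genes, and not every one is printed. Alternatives were another pseudocount, no filter, other scalings, a replicate block, all 6 libraries in one fit, other thresholds, and each library left out in turn. Genome positions were not used here, and gene numbers give order only.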

Additional observations from a re-analysis of the deposited data

How the results depend on the processing

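With a 2-fold minimum added, 736 genes were higher and 592 lower in TL3D than in CK2D, beside 2352 and 2521. Leaving out each library in turn gave 1835 to 2184 higher and 1838 to 2227 lower. The counts stayed within 1.5 times of these under every other setting run: at an adjusted p under 0.01 they were 1767 and 1701, with all 6 libraries in one fit 1883 and 1954, with the median log ratio 2519 and 2282, with the upper quartile 2338 and 2544, without the filter 2427 and 2479, and with a pseudocount of 0.1 FPKM 2340 and 2510. For TL3D against TL2D, all 6 libraries in one fit gave 879 higher and 636 lower, beside 557 and 271. The TL2D replicates lie further apart than the others, and their part in this was not tested.

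The replicate numbers are shared between groups, but no label pairs the libraries, and the deviations of replicate 1 in TL3D and CK2D from their group means correlated at −0.247 over 8356 genes. With the replicate block, which leaves 1 residual degree of freedom, 2146 genes were higher and 2222 lower. Of the 129 named genes, 126 were called, and 17 lost the call in at least 1 of 10 settings, 16 of them with all 6 libraries in one fit. None of the named genes changed direction. In that fit the lower counts were 3 for conidiation, 4 for phenol oxidation, 7 for autophagy and 26 for the cell cycle, and the higher counts were 6 for sugar transporters, 10 for the cell cycle and 39 for transcription factors. The cause was not tested. The unknown depth limits what can be said of genes near 0 FPKM.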

Other observations

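Zinc genes form a group that no list covered, and they were searched for after zinc-regulated transporter 1 PCI_9228 appeared among the 15 falls of the naming rule, which takes named genes above the median level. Of 12 genes named for zinc transport or zinc regulation, 6 were lower in TL3D than in CK2D and 1 was higher. Of all tested genes, 30.2% were lower and 28.1% higher. The median change over the 12 was −0.815. PCI_9228, which prompted the search, is counted in these values, so they are no independent finding. PCI_9228, named after a yeast uptake transporter of the plasma membrane, read 261 and 281 FPKM on plates and 31.6 and 19.3 FPKM on leaves (−3.40 ± 0.20). The regulator ZAP1 PCI_4903, which switches on zinc uptake in yeast, fell from 65.4 and 61.1 to 11.6 and 11.4 FPKM (−2.36 ± 0.09). Both genes fell without overlap. Zinc-regulated transporter 2 PCI_5019 fell from 20.6 and 23.3 to 1.51 and 1.28 FPKM (−3.26 ± 0.13), and PCI_5441 of the same name from 151 and 159 to 57.1 and 58.3 FPKM (−1.41 ± 0.08), while PCI_6338 of that name was not called at 39.1 and 39.9 FPKM on plates and 34.6 and 34.04 FPKM on leaves. The COBW domain-containing protein PCI_2196 was also among the falls of that rule, at 149 and 224 FPKM on plates and then 3.86 and 3.51 FPKM on leaves (−5.29 ± 0.18).

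Genes named hypothetical protein numbered 1655, and 1380 of them were tested. They gave 364 higher (26.4%) and 436 lower (31.6%), near the 28.1% and 30.2% of all tested genes. At least 2-fold higher were 154 (11.2%) and lower 102 (7.39%), beside 8.81% and 7.08% of all tested genes. Picked after their values were seen, PCI_8333 read 0.122 and 0.472 FPKM on plates and 99.1 and 130.3 FPKM on leaves (6.48 ± 0.18), and PCI_9244 read 1.45 and 1.28 FPKM on plates and 153 and 173 FPKM on leaves (6.12 ± 0.11). PCI_8561 went the other way, from 1634 and 1614 to 7.02 and 8.99 FPKM (−7.50 ± 0.12). PCI_1924 read 49.01 and 56.2 FPKM on plates, 69.5 and 0.786 FPKM in the day 2 leaf libraries and 1148 and 848 FPKM on leaves at day 3. Its TL2D libraries lie far apart, and those of the other groups do not.

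2 genes were listed at 0 in both plate libraries and reached 1 FPKM in both TL3D libraries: feruloyl esterase A PCI_7559, given above, and the FAD-binding monooxygenase moxY PCI_9212. The latter read 2.58 and 1.25 FPKM in TL2D and 11.6 and 9.67 FPKM in TL3D.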
